A study of Mus musculus with 6 samples.

Results

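The flavin-containing monooxygenase (FMO) genes Gm4847, Fmo1, Fmo2, Fmo4 and Fmo5 were followed by RNA-seq in cultured mouse cells labelled as female germline stem cells (FGSCs). These 5 genes, of 24813 gene symbols with counts, were selected by symbol, and they were proposed with their levels in these samples already known. The levels of the 5 genes are therefore given as a description and were not tested. The family members Fmo6, Fmo9 and Gm4846 are given for comparison. RefSeq lists Fmo12 as another name of Gm4847 and Fmo13 as another name of Gm4846.

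FMO enzymes use the flavin cofactor FAD, the reductant NADPH and oxygen to add an oxygen atom to nitrogen or sulfur atoms of drugs, food components and metabolites. FAD holds the activated oxygen, and NADPH supplies the electrons. The family is known mainly from liver, kidney and lung, and its levels in mice depend on tissue, sex and age.

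The cells of both groups were labelled as FGSCs with more than 20 passages from C57BL/6 mice, and they were grown on inactivated STO fibroblast feeder cells. According to the methods of the study, FGSC lines came from ovaries of neonatal mice carrying Ddx4-Cre and the mT/mG reporter, and the knockdown cells received a lentivirus with a short hairpin RNA against CTCF and were selected with puromycin. CTCF is a DNA-binding protein that shapes chromatin loops and domains. The control group had 3 samples and the CTCF knockdown group (shCTCF) had 3. The construct given to the control cells, and whether the 3 samples of a group came from separate cultures, were not given in the sources used here, so that p-values measure the spread between these samples only, which may be technical.

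The total counts per sample lay between 1686052 fragments in control replicate 2 and 7044272 in control replicate 3, and 3 counts corresponded to 0.426 to 1.78 CPM (counts scaled to the library total). Ctcf was present at 58.2, 56.1 and 53.5 FPKM (fragments scaled to transcript length and to the mapped fragments of the library) in controls 1, 2 and 3 and at 0.740, 0.550 and 0.629 FPKM in the shCTCF samples, in the direction of the labels, although it had 0 counts in all samples. Of 7 FGSC markers, 1 reached 1 FPKM in any sample (Ifitm3), Dppa3 and Gfra1 were listed at 0, and Ddx4 and Dazl did not exceed 0.182 and 0.0759 FPKM. The defining germ cell markers of the label were thus at or near 0 in these libraries. The summed level of the 7 markers was 0.0694 to 1.27 FPKM in the controls and 11.3 to 12.2 FPKM in the shCTCF group. Most of the latter was Ifitm3, which went from 0.737 to 10.8 FPKM (limma adjusted p = 4.59e-05). Prdm1, under 1 FPKM in every sample, was higher on counts (edgeR adjusted p = 1.35e-06), and no marker of this list was called lower. Ddx4 was listed at 0 in all controls and at 0.0321 to 0.182 FPKM in the shCTCF samples. Of 10 markers of haematopoietic and mast cells, 7 reached 1 FPKM, and their summed level was 1593 to 1672 FPKM in the controls and 2365 to 2483 FPKM in the shCTCF group, with Fcer1a at 0. The list did not move as one. On FPKM 4 markers were higher (Kit, Srgn, Hdc and Cma1), and Cpa3 was lower, from 281 to 88.0 FPKM (limma adjusted p = 5.07e-05). Ptprc and Gata2 did not pass the test. Srgn went from 174 to 770 FPKM and Hdc from 4.25 to 87.2 FPKM. In the control and shCTCF means, Kit was at 575 and 787 FPKM, Gata2 at 501 and 560 FPKM and Ptprc at 104 and 115 FPKM. Ms4a2 and Tpsb2 did not reach 1 FPKM in any sample. The 10 fibroblast markers summed to 10.1 to 10.8 FPKM in the controls and to 8.33 to 8.66 FPKM in the shCTCF group, with Col3a1 and Lum at 0. Of these, Pdgfra (1.13 to 4.16 FPKM) and Thy1 (0.382 to 2.02 FPKM) were higher, and Pdgfrb (6.09 to 2.16 FPKM) and Dcn (2.71 FPKM to a listed 0) were lower by the limma test. The part of such cells in the results below was not tested, and in bulk RNA fewer cells of a type and less RNA per cell cannot be told apart.

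By the mm9 coordinates of the count table, 7 of these 8 family genes lay on chromosome 1, all on the minus strand, in 2 groups. The first held Fmo4 (positions 164724014 to 164742680), Fmo1 (164759692 to 164796741), Fmo2 (164804449 to 164828889) and Fmo6 (164846682 to 164867356) within 143.3 kb. The second began 3546 kb further on and held Gm4846 (168413744 to 168427719), Gm4847 (168559102 to 168577824) and Fmo9 (168592186 to 168611976) within 198.2 kb. Fmo5 was not part of either group, since it lay on the plus strand of chromosome 3 (97432727 to 97459210). Gm4847 was 131.4 kb from Gm4846 and 14.4 kb from Fmo9.

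The family relation can be read from the start of the coding sequence, where the codons of the glycine-rich FAD-binding site stand. The stretches shown are 42 bases of the coding sequence in the reference transcripts of mm9, printed 5′ to 3′ to show the shared letters, and the capitals mark the first in-frame match of GGNNNNGGNNNNNNNGGN, in which the GG pairs begin glycine codons and N is any base. The match began at base 25 or 28 of the coding sequence in all 7 genes for which a reference transcript was read. Fmo6 was not among them.
Gm4847: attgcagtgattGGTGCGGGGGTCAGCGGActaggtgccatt
Gm4846: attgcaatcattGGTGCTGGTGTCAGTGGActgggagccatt
Fmo9: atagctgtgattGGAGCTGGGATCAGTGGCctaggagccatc
Fmo5: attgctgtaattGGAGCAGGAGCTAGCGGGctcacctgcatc
Fmo1: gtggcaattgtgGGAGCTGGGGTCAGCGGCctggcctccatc
Fmo2: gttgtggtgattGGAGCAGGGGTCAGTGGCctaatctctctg
Fmo4: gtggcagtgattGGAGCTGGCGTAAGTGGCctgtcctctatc

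Over the whole coding sequence, Gm4847 (1614 bases) was closest to its neighbour Gm4846, with 80.4% identical bases in the aligned part. Its identity was 67.8% with Fmo9, 65.6% with Fmo5, 62.7% with Fmo2, 61.9% with Fmo4 and 60.7% with Fmo1. The longest run of identical bases that Gm4847 shared with another of these genes was 67 bases, with Gm4846. In the other 5 genes the longest run shared with any of them was 22 to 24 bases. The reads were longer than these runs, so that reads from the coding sequence of one of these genes could seldom match that of another over their full length. The untranslated bases and Fmo6 were not compared. All 3012 exon bases of Gm4847 were annotated to it alone, in 9 exons, of which the first (195 bases) held no coding bases and the last (1556 bases) held 358.

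Gm4847 was almost without reads in the controls and well expressed in the shCTCF group. Its counts were 1, 0 and 0 in controls 1, 2 and 3 and 2555, 1724 and 2352 in shCTCF samples 1, 2 and 3. In FPKM it was 0.0309, 0 and 0 in controls 1, 2 and 3 against 76.1, 57.6 and 60.6 after knockdown, with a mean of 64.8 ± 9.93 FPKM (SD, n = 3) in the latter. All shCTCF samples were high, all controls were at or near 0 on both scales, and no values of the groups overlapped. On FPKM, 27.8% of the 15378 symbols above 0 in some sample also had all shCTCF samples above all controls. In CPM after TMM normalization, the shCTCF mean was 394 ± 66.5 (SD, n = 3). Pooled over the samples, 1 of 15294302 counts in the controls and 6631 of 17992657 in the shCTCF group fell on Gm4847. The ratio of these shares was 5637, with a 95% exact interval of 1011 to 222665 that covers counting error only, and its width comes from the single count of the controls. On the log2(FPKM + 1) scale the groups differed by 6.01 (SE 0.12).

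By its mean of 64.8 FPKM, Gm4847 ranked 1120th among the 9931 genes with at least 1 FPKM in the shCTCF mean, and 88.7% of those genes lay below it. Of 15709 symbols with at most 3 counts in every control, 22 had at least 100 counts in every shCTCF sample and 2 had at least 1000, which were Gm4847 and Nts, the gene of the neuropeptide neurotensin. Gm4847 was second to Nts by mean count among them. These numbers depend on the limit of 3 counts and on the count table, since Ifit3 and Rsad2, given below, lay just past that limit in the controls with over 1000 counts in every shCTCF sample, and genes with overlapping accessions, such as Mx2, had no counts to compare.

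The other FMO genes of chromosome 1 did not show this level. Fmo4, a minor family member in most tissues, had 0 counts and 0 FPKM in all 6 samples. Its 1787 exon bases were annotated to it alone, so that its counts were informative, and a pooled count of 0 allows up to 0.196 CPM in the controls and 0.167 CPM in the shCTCF group (3 counts of the pooled total). Fmo2, known as the lung form, was also at 0 on both scales in all samples. At most 2.12% of the bases of an Fmo2 accession were its own, and fragments that matched several accessions were not counted, so that for Fmo2 the FPKM of 0 is the value to read. Fmo9 was at 0 on both scales in all samples. At most 8.52% of the bases of an Fmo9 accession were its own, so that for Fmo9 too the FPKM of 0 is the value to read. Fmo6 had 1 count, in control replicate 1, and 0 FPKM. In all, 4 of the 8 family symbols were listed at 0 FPKM in every sample.

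Gm4846, the neighbour with the most similar sequence, had 4 counts, all in shCTCF replicate 2, where it was listed at 0.0634 FPKM. It was at 0 in the other 5 samples on both scales. The level of Gm4847 was thus not shared by the FMO genes on either side of it, Gm4846 and Fmo9.

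Fmo1, a form with broad substrate use known from kidney and liver, was present as a few reads in both groups. It had 8, 3 and 8 counts in controls 1, 2 and 3 and 4, 5 and 5 counts in shCTCF samples 1, 2 and 3, and all came from 1 of its 3 accessions, a short one with 5 exons of which 847 bases (55.1%) were not shared. In FPKM it was 0.121, 0 and 0.0565 in controls 1, 2 and 3 against 0.0657, 0.144 and 0.0579 after knockdown, and the groups overlapped. In CPM after TMM normalization, controls 1, 2 and 3 had 1.16, 1.67 and 1.09, and the knockdown samples had 0.735, 0.999 and 0.782, all lower. This order rests on 3 to 8 counts a sample. The share of all genes with the groups apart was not computed for CPM, so that nothing is read from it. The group difference of Fmo1 was 0.04 (SE 0.06) on the log2(FPKM + 1) scale and -0.32 on the log2(CPM + 1) scale of these TMM-normalized values. Its direction depended on the table, and the value of control replicate 2, the smallest library, rested on 3 counts.

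Fmo5, an unusual family member that acts on carbonyl compounds as a Baeyer-Villiger monooxygenase, was at a low level in the FPKM table. It was listed at 0.107, 0 and 0.0334 FPKM in controls 1, 2 and 3 and at 0.330, 0.298 and 0.154 FPKM in shCTCF samples 1, 2 and 3. All shCTCF samples lay above all controls, with means of 0.261 ± 0.0938 and 0.0468 ± 0.0548 (SD, n = 3 each) and a difference of 0.27 (SE 0.08) on the log2(FPKM + 1) scale. Of 4833 symbols that were above 0 in some sample but under 1 FPKM in every one, 20.3% had all shCTCF samples above all controls and 3.85% had them below, and over the 15378 symbols above 0 in some sample the share with the groups apart was 59.5% (27.8% with the shCTCF group higher and 31.7% lower). The separation of Fmo5 was therefore of a kind that many genes at its level showed. Its count was 0 in all samples, since 4 accessions of Fmo5 shared nearly all of their bases and at most 2.98% of an accession was its own, so that the counts could not be used to check the FPKM values.

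In the shCTCF group the order of the levels was Gm4847, Fmo5 and Fmo1 (0.0892 ± 0.0475 FPKM), followed by Fmo2 and Fmo4 at 0. The lowest shCTCF value of Fmo5, 0.154 FPKM, was close to the highest of Fmo1, 0.144 FPKM. Among the controls, Fmo1 (0.0592 ± 0.0605 FPKM), Fmo5 (0.0468 ± 0.0548) and Gm4847 (0.0103 ± 0.0178) overlapped and did not differ beyond their spread.

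**Figure D1:**
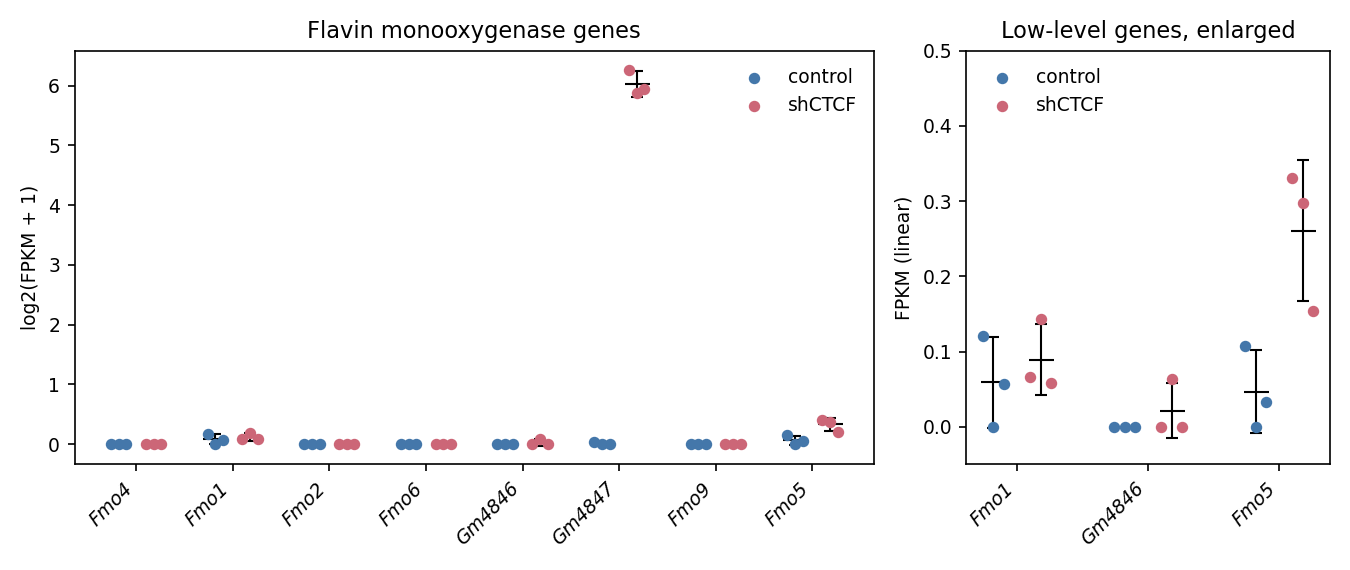
Expression of 8 FMO genes by sample. The left panel gives log2(FPKM + 1) in map order (Fmo5, on chromosome 3, last) and the right panel enlarges Fmo1, Gm4846 and Fmo5 on a linear FPKM axis, with points for the 3 control and 3 shCTCF samples and bars for the mean ± SD. Gm4847 stands at 57.6 to 76.1 FPKM in the shCTCF samples, whereas no other gene shown exceeds 0.330 FPKM.

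Hepatocytes and adipocytes, in which FMO genes are known to be expressed, were checked by their markers. Of 5 hepatocyte markers, Ttr, Apoa1 and Serpina1a were at 0 in all samples, and the summed level of the list was 0 in the controls and 0.125 to 0.858 FPKM in the shCTCF group. In shCTCF samples 1 and 2 most of it was Alb, the albumin gene. Alb had no count in any control against 8, 18 and 8 in shCTCF samples 1, 2 and 3. In shCTCF sample 3, Hnf4a (0.0816 FPKM) lay above Alb (0.0432 FPKM). The 5 adipocyte markers summed to 0 in the controls and to 0.0478 to 0.358 FPKM in the shCTCF group, with Lep and Retn at 0. The 5 endothelial markers summed to 1.07 to 1.43 and 1.81 to 2.07 FPKM, of which Pecam1 made up nearly all. The part of such cells in the level of Gm4847 was not tested.

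The 250 bases before the annotated start of Gm4847 are printed because the gene went from almost no reads to a high level, and those of its neighbour Fmo9, which was at 0, are printed for comparison. Both were read from mm9 on the minus strand, chr1:168577825-168578074 for Gm4847 and chr1:168611977-168612226 for Fmo9, and have the same letters as the promoters that RefSeq gives for assembly GRCm38.p6. Capitals mark matches of the motifs TTCNNNGAA (GAS, the site class bound by STAT factors), TATAAA (the TATA box) and the CCAAT box, searched on both strands.
Gm4847: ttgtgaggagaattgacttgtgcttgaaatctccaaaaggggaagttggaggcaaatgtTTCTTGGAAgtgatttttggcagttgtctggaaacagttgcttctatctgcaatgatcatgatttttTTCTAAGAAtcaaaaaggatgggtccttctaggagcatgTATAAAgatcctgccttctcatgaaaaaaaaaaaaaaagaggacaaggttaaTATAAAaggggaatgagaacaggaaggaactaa
Fmo9: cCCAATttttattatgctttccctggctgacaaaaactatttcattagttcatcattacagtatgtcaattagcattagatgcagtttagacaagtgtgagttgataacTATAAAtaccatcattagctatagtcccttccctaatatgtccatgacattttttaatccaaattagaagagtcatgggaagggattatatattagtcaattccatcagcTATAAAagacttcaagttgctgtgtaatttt

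The Gm4847 window held the GAS letters at 2 places, at positions -191 to -183 and -124 to -116 from the start, and TATAAA beginning at positions -85 and -33. Of 32851 RefSeq promoter windows of 250 bases, 7.02% held TTCNNNGAA and 0.317% held it at 2 or more places. TATAAA stood in 12.4% of the windows and at 2 or more places in 2.1%, as in both Gm4847 and Fmo9. It began 25 to 35 bases before the start on the gene's strand in 1.75%, as it also did in both. Fmo9 held TATAAA beginning at positions -141 and -31, CCAAT, found in 33.8% of windows, and no GAS letters. Neither window held the CTCF core letters CCACNAGG (4.22% of windows), TTTCNNTTT (ISRE, the interferon response element, 9.37%) or GCGTG (XRE core, 28.2%). Both windows lacked the dinucleotide CpG, as did 7.87% of all windows, and their GC content was 36.8% for Gm4847 and 32.0% for Fmo9 against a median of 52.4%. The 2 windows were chosen for the levels of their genes. The shares for 2 or more places and for 25 to 35 bases count patterns that these windows show. These shares are therefore a description and not a test.

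To examine whether the level of Gm4847 went along with changes of the genes around it, all genes within 1 Mb were read from the fits over all genes. In these fits 69.1% of the 7341 genes tested on counts with edgeR were past an adjusted p of 0.05 (34.8% higher and 34.3% lower in the shCTCF group), as were 73.0% of the 9976 genes tested on FPKM with limma (28.8% higher and 44.2% lower), and the median change over all genes tested on FPKM was -0.17 on the log2 scale. A changed neighbour is thus the usual case. Of 23 other symbols in the window, 10 had at least 1 FPKM in a sample. Of these, 3 were higher, 2 were lower and 5 did not pass the test on FPKM (median change 0.07), and on counts 1 of 6 genes tested was higher and 2 were lower. The share called in this window was 50.0% on FPKM, beside the 73.0% of all genes tested, and 50.0% on counts, beside 69.1%. These shares rest on 10 and 6 genes.

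The nearest transcribed gene at lower coordinates, on the side of the last exon of Gm4847, was Tada1, 235.4 kb away. Tada1 encodes a subunit of the SAGA histone acetyltransferase complex. Tada1 fell from 14.4 ± 0.975 FPKM to 5.84 ± 0.740 FPKM (SD, n = 3 each; log2 change -1.18, limma adjusted p = 3.09e-05). At higher coordinates, on the side of the start of Gm4847, the nearest was Uck2, a uridine-cytidine kinase gene, 578.4 kb away. Uck2 was at 123 ± 12.8 and 113 ± 4.001 FPKM (log2 change -0.13, limma adjusted p = 0.202). Between the ends of these 2 genes, over 832.5 kb, 5 symbols besides Gm4847 lay wholly within the stretch, of which 4 were listed at 0 FPKM in all samples and the highest value was 0.0634 FPKM, that of Gm4846 in 1 sample. Pogk, which overlapped the end of Tada1 and otherwise lay in the stretch, was also listed at 0 in all samples. Gm4847 was thus the only symbol above 1 FPKM in this stretch in these libraries.

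Further out, Aldh9a1, an aldehyde dehydrogenase gene of carnitine synthesis (702.3 kb), fell from 35.9 ± 1.17 to 13.5 ± 0.439 FPKM (limma adjusted p = 1.5e-06). Its neighbour Mgst3, a microsomal glutathione transferase gene (724.7 kb), rose from 3.88 ± 0.996 to 10.1 ± 2.04 FPKM (limma adjusted p = 0.000772). Both were called in the same direction on counts. Rcsd1, the gene of a protein that binds actin-capping protein (920.9 kb away, on the Tada1 side), rose from 15.3 ± 0.510 to 24.7 ± 1.23 FPKM (limma adjusted p = 9.51e-05). The call of Pou2f1, the octamer-binding factor gene OCT1 (626.3 kb away, on the Tada1 side, 2.77 and 3.72 FPKM), was fragile. Its limma adjusted p of 0.0375 became 0.0670, 0.107, 0.110 and 0.131 without control 1, control 3, shCTCF 2 and shCTCF 3. With the replicate number as a block it became 0.0737. Cd247, a T cell receptor subunit gene (6.73 and 5.75 FPKM), and Tmco1, a calcium channel gene of the endoplasmic reticulum (27.0 and 28.8 FPKM), did not pass the test.

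**Figure D2:**
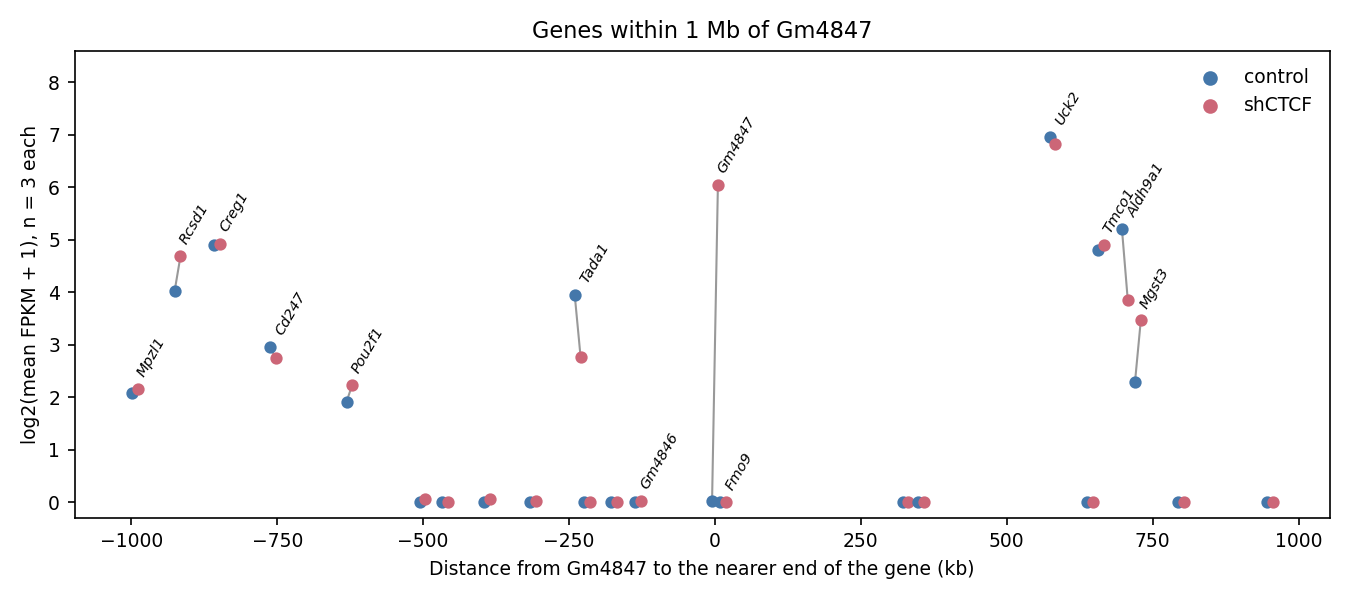
Genes within 1 Mb of Gm4847. The horizontal axis is the distance in kb from Gm4847 and the vertical axis is log2(mean FPKM + 1) of the 3 control (blue) and 3 shCTCF (red) samples, set slightly apart and joined by a line for each gene. Gm4847 stands at 0.0103 FPKM in the controls and 64.8 FPKM in the shCTCF group between Tada1, which is lower in the shCTCF group, and Uck2, and the other genes between them are near 0 in both groups.

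Around the other FMO group (Fmo4 to Fmo6), 20 other symbols, Fmo6 included, were read within 1 Mb. On FPKM 2 of 8 genes tested were higher, 3 were lower and 3 did not pass, and on counts both genes tested were lower. Prrc2c, an RNA-associated protein gene 53.3 kb from Fmo4, fell from 68.6 ± 4.04 to 49.1 ± 1.05 FPKM (limma adjusted p = 0.000361). Eef1aknmt, a methyltransferase gene of an elongation factor, was at 8.63 and 5.57 FPKM (limma adjusted p = 0.0017), but its edgeR adjusted p of 0.0101 on counts became 0.0545 without shCTCF replicate 2. The strongest change was that of Kifap3, a kinesin-associated protein gene, from 35.3 ± 3.41 to 13.0 ± 0.507 FPKM (limma adjusted p = 5.39e-06). Suco and Pigc were higher, at 5.0 and 7.80 FPKM and at 2.64 and 3.94 FPKM, and Pigc lost its call without shCTCF replicate 1 (limma adjusted p = 0.0533 in place of 0.0154). The share called on FPKM in this window, 62.5%, stands beside the 73.0% of all genes tested. Fmo4 and Fmo2 themselves stayed at 0.

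Around Fmo5, 34 other symbols lay within 1 Mb, and 3 of 15 genes tested on FPKM were higher, 7 were lower and 5 did not pass, against 2 higher and 4 lower of 12 on counts. The share called on FPKM was 66.7%, beside the 73.0% of all genes tested. Chd1l, a chromatin remodeller gene 18.6 kb from Fmo5, fell from 10.7 ± 0.698 to 3.56 ± 0.171 FPKM (limma adjusted p = 6.14e-06). Notch2, a receptor gene of the Notch pathway, fell from 29.4 ± 3.22 to 9.21 ± 0.460 FPKM (limma adjusted p = 3.74e-06), and Acp6, a lysophosphatidic acid phosphatase gene, from 13.7 ± 3.87 to 4.81 ± 0.202 FPKM (limma adjusted p = 0.000235). Ankrd35 rose from 0.265 ± 0.127 to 1.91 ± 0.461 FPKM (limma adjusted p = 0.000333). Prkab2, the gene nearest to Fmo5 at 2.93 kb, was at 4.97 and 3.95 FPKM, and its limma adjusted p of 0.0354 became 0.0859, 0.0837, 0.128 and 0.0671 without control 1, control 3, shCTCF 2 and shCTCF 3 and 0.294 after scaling to equal medians. The remaining calls were Rnf115 and Phgdh, higher, and Rbm8a, Polr3c and Pde4dip, lower. The call of Rnf115 on FPKM (limma adjusted p = 0.0334) was lost without control 1, shCTCF 1, shCTCF 2 or shCTCF 3, with values of 0.0968, 0.0540, 0.115 and 0.0928.

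Genes that supply or surround the FMO reaction were then read from 5 lists with 50 genes in all. Of these, 25 were tested on FPKM, of which 13 were higher, 9 were lower and 3 did not pass, with a median change of 0.23 on the log2(FPKM + 1) scale against -0.17 over all genes. On counts 9 of 19 genes tested were higher and 7 were lower. The share called on FPKM, 88.0%, stands beside the 73.0% of all genes tested.

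Genes that provide FAD and NADPH, the cofactors of FMO enzymes, moved in both directions, with 3 of 9 higher, 5 lower and 1 (Pgd) not past the threshold on FPKM. G6pdx, the gene of glucose-6-phosphate dehydrogenase, the entry enzyme of the NADPH-producing pentose phosphate pathway, was at 41.9, 45.02 and 43.2 FPKM in the controls and at 12.4, 11.2 and 11.5 FPKM in the shCTCF samples. It fell by 1.80 on the log2 scale (SE 0.07, limma adjusted p = 5.16e-07). Me1 (malic enzyme) and Nadk (NAD kinase) were also lower, at 14.5 and 9.10 FPKM and at 45.001 and 29.3 FPKM, whereas Idh1 (isocitrate dehydrogenase) was higher, at 24.4 and 40.7 FPKM. Of the genes of flavin supply, Rfk, the riboflavin kinase gene, rose from 17.2 ± 2.66 to 33.8 ± 2.53 FPKM (limma adjusted p = 0.000204), and the riboflavin transporter gene Slc52a3 rose from 0.409 ± 0.212 to 2.32 ± 0.208 FPKM (limma adjusted p = 0.000166). Flad1, which encodes the FAD synthase acting after riboflavin kinase, fell from 13.5 ± 3.09 to 7.64 ± 0.417 FPKM (limma adjusted p = 0.00249), and the transporter gene Slc52a2 fell from 2.26 to 1.15 FPKM.

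Of 14 genes for other oxidation enzymes and their electron donors, 4 were tested on FPKM, with 2 higher and 2 lower. Cyb5a, the gene of cytochrome b5, an electron carrier of the endoplasmic reticulum where FMO enzymes also reside, was at 119, 125 and 133 FPKM in the controls and at 3360, 3393 and 3359 FPKM in the shCTCF samples. It rose by 4.73 on the log2 scale (SE 0.06, limma adjusted p = 8.91e-09), and on counts, of which its 2 accessions kept few, it went from 4, 1 and 3 to 47, 42 and 59 (log2 change 4.07, edgeR adjusted p = 5.22e-07). Cyb5r3, the gene of the reductase of cytochrome b5, rose from 19.2 ± 3.26 to 32.7 ± 1.04 FPKM (limma adjusted p = 0.000673). Por, the electron donor of cytochromes P450, fell from 96.3 ± 10.8 to 30.4 ± 3.34 FPKM (limma adjusted p = 6.14e-06), and Maoa, a monoamine oxidase gene, fell from 12.9 ± 0.5005 to 8.51 ± 0.257 FPKM (limma adjusted p = 0.000356).

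The conjugation enzymes, which act on oxygenated products, had 4 of 5 genes tested on FPKM higher and 1 lower. Gsta4, a glutathione transferase gene, fell from 5.92, 9.80 and 7.07 FPKM to 0.316, 0.346 and 0.650 FPKM (log2 change -2.56, SE 0.18, limma adjusted p = 8.93e-06). Mgst3, described above as a neighbour of Gm4847, was higher, as were Gstm1 (37.1 and 55.9 FPKM) and Gstp1 (59.7 and 81.3 FPKM). The glucuronosyltransferase gene Ugt1a6a was listed at 0 FPKM in all controls and at 5.002, 3.65 and 3.48 FPKM in the shCTCF samples, and its FPKM is uncertain because it shares exons with the other genes of its locus. Its counts, from which fragments shared between accessions were left out, were 0, 1 and 3 in controls 1, 2 and 3 against 80, 43 and 60 after knockdown (log2 change 5.32, edgeR adjusted p = 2.5e-06).

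FMO enzymes are also linked to the making of taurine from hypotaurine, and of 7 genes around taurine and cysteamine 2 were tested. Slc6a6, the taurine transporter gene, rose from 34.6 ± 1.97 to 60.2 ± 5.74 FPKM (limma adjusted p = 9.27e-05), and Ado, the cysteamine dioxygenase gene, was at 7.46 and 7.43 FPKM and did not pass the test. Of 10 genes for regulators of drug-metabolising enzymes, 5 were tested on FPKM. Ahr, the aryl hydrocarbon receptor gene, rose from 2.40 ± 0.361 to 5.65 ± 0.360 FPKM (limma adjusted p = 0.000139) and Hif1a from 37.7 ± 4.86 to 73.6 ± 3.43 FPKM (limma adjusted p = 7.08e-05), whereas Arnt, which encodes the shared partner of both proteins, fell from 26.0 ± 1.58 to 17.3 ± 0.634 FPKM (limma adjusted p = 0.000295). Nfe2l2 was at 50.3 and 58.9 FPKM (limma adjusted p = 0.012), which became 0.0581 without shCTCF replicate 2, while its call on counts was kept. Keap1, which encodes the inhibitor of the Nfe2l2 protein, did not pass on FPKM (log2 change 0.18, limma adjusted p = 0.0946) but was called higher there after scaling to equal medians (0.36, adjusted p = 0.00689) and without control 2 (0.24, adjusted p = 0.0143). It was called lower on counts (log2 change -0.86, edgeR adjusted p = 0.0224), and it lost that call without control 1 (0.240) or shCTCF 1, 2 or 3 (0.0640, 0.0558 and 0.0794).

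**Figure D3:**
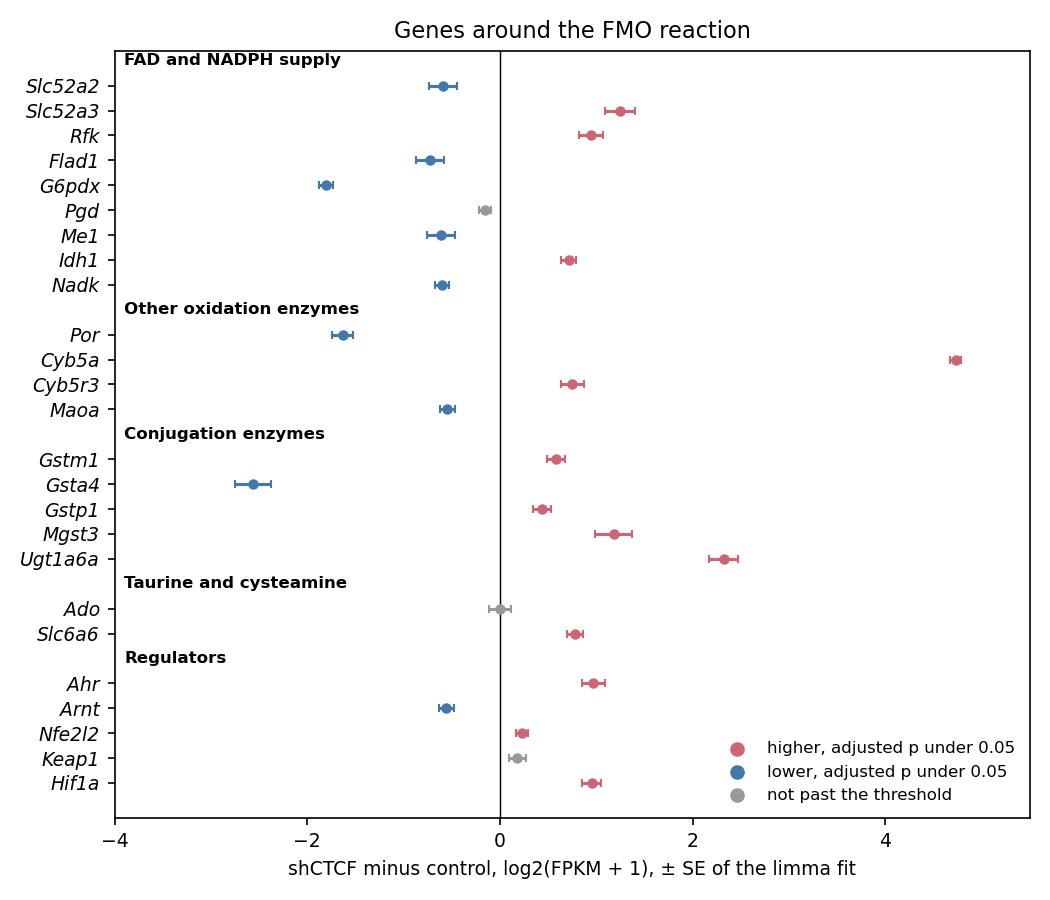
Changes of the 25 genes of the FMO reaction lists that were tested on FPKM. Points give the difference shCTCF minus control on the log2(FPKM + 1) scale and bars the SE of the limma fit (3 samples a group), red for higher, blue for lower and grey for not past an adjusted p of 0.05. Cyb5a stands furthest to the right at 4.73, and Gsta4 furthest to the left at -2.56.

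Finally, the genes whose levels over the 6 samples were nearest to those of Gm4847 were taken by Euclidean distance of log2(FPKM + 1). They were Prl2c5, a prolactin family hormone gene on chromosome 13 (distance 0.424), Ifit3, an antiviral protein gene on chromosome 19 (0.433), Rsad2, the viperin gene on chromosome 12 (0.671), Mx2, a dynamin-like GTPase gene on chromosome 16 (0.840), and Csn1s2a, a casein gene on chromosome 5 (1.10). None was on chromosome 1. Ifit3 was at 0.0930, 0 and 0.174 FPKM in the controls and at 63.7, 57.3 and 50.8 FPKM in the shCTCF samples, and its counts of 2, 0 and 4 against 1310, 1106 and 1277 showed the same pattern. Rsad2 was at 0.0246, 0.191 and 0.115 FPKM and at 52.5, 51.8 and 50.8 FPKM, with counts of 2, 2 and 5 against 2316, 2035 and 2545. Prl2c5, Mx2 and Csn1s2a had at most 1 count in any sample, so that their FPKM profiles could not be checked in the count table, and Prl2c5 has near-identical copies. The distance is a description over 6 samples in 2 groups, in which any gene near 0 in one group and near 60.6 FPKM in the other is close to Gm4847.

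**Figure D4:**
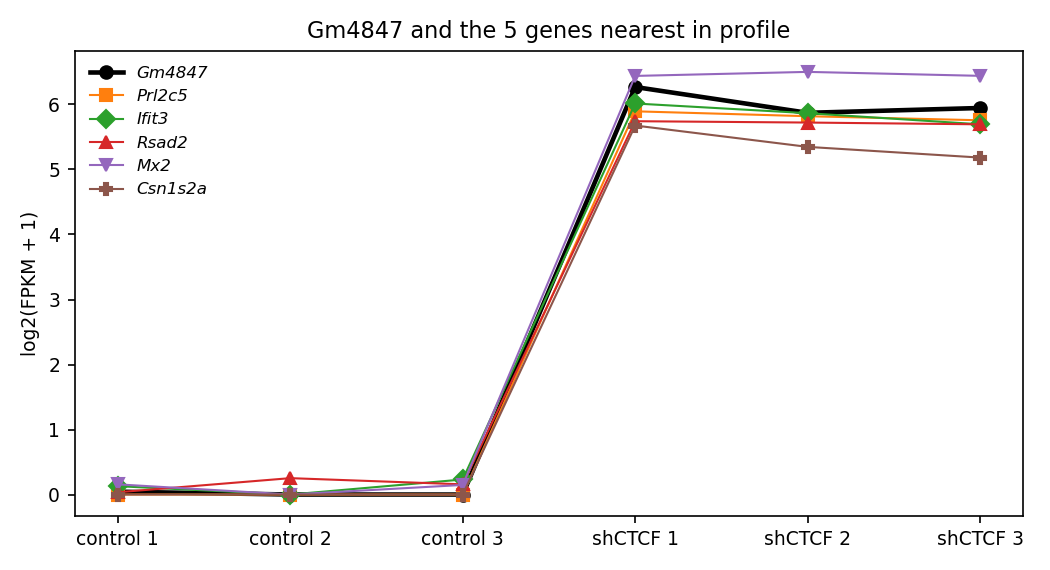
Profiles of Gm4847 and the 5 genes nearest to it. Lines join log2(FPKM + 1) over the 3 control and 3 shCTCF samples, one gene a line, with Gm4847 in black. All 6 genes are near 0 in the controls, and in the shCTCF samples they lie between 35.3 FPKM (Csn1s2a, shCTCF 3) and 89.6 FPKM (Mx2, shCTCF 2).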

How the data were processed

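RNA-seq libraries of 3 control and 3 shCTCF samples were prepared with a stranded mRNA kit, and all 6 were used. Per the labels and methods, reads were aligned by the authors to mm9 with HISAT2 (given as version 4.8.2). The deposited counts are whole fragments per RefSeq transcript accession, made by the authors with featureCounts 1.6.2 without use of the strand, and a fragment that overlapped more than 1 accession was left out. The deposited FPKM values were made by the authors with Cufflinks 2.2.1. No sample column was left unmapped (0).

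Accessions were named with the RefSeq table of GRCm38.p6 (41186 of 41388 accessions with counts), and counts and FPKM were summed per symbol. Accessions without a name held at most 0.603% of a sample's counts. Genes were tested over the whole tables with edgeR 4.0.16 (quasi-likelihood, TMM, filterByExpr) and, from a mean of 1 FPKM, with limma 3.58.1 (trend) on log2(FPKM + 1), which understates changes of low genes, in R 4.3.3. P-values were two-sided and Benjamini-Hochberg adjusted. The scripts were tested on simulated data. Sequences were aligned with Biopython 1.88 and the interval of the count ratio came from SciPy 1.17.1. Alternatives were DESeq2 1.42.0 and other scalings, filters, pseudocounts, windows and omitted replicates. Floors and intervals cover counting error only.

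The members, gene lists and alternatives were chosen with earlier results of these data known. The genes named were the FMO family, Ctcf, the markers, the 3 nearest transcribed genes on each side of Gm4847, up to 4 called genes of each window and list with the largest change, and the 5 nearest profiles. Other called neighbours and list genes, Keap1, Pgd, Ado, Pogk and Nts were named after their values had been seen. Items withheld from this text were left out of the family, windows and lists and are not reported here.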

Additional observations from a re-analysis of the deposited data

How the results depend on the processing

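Results were kept in 143 of 156 comparisons of the main counts and levels and in 810 of 848 of single genes and lists. Kept meant the same direction and side of the threshold for single genes, and a count within 1.5 times for counts. For the levels of the members it meant a difference moved by no more than the pooled SD of the groups. Fmo2 and Fmo4 were at 0 in all samples, so that their levels could not move in any setting. With windows of 0.5 Mb, fewer genes were tested and the called neighbours on counts were 1 for Gm4847 and 3 for Fmo5, and on FPKM 1 for Gm4847, 2 for the Fmo4 to Fmo6 group and 5 for Fmo5. Around that group the 2 calls on counts became 1 with DESeq2 and were 1 to 2 when a replicate was left out. With a pseudocount of 0.1 the differences were 9.20 for Gm4847, 0.29 for Fmo1 and 1.32 for Fmo5. On log2(CPM + 1), with CPM after TMM normalization, they were 8.55, -0.32 and 0. This turned the direction for Fmo1, and for Fmo5 the 0 follows from its counts of 0. The log2 change of Uck2 on FPKM turned to 0.0562 after scaling to equal medians, and that of Tmco1 ranged from -0.13, without control replicate 2, to 0.26 when a replicate was left out, none past the threshold. The cause was not tested.

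Control and shCTCF samples with the same replicate number did not deviate together (correlations of -0.01, 0.03 and 0.01 over 7341 genes). This check gave no sign of pairing, but it cannot show that the samples were not handled in pairs. With the replicate number as a block, 4889 genes were called on counts in place of 5074 and 7137 on FPKM in place of 7281. Depth limits the low genes most, since 3 counts are 1.78 CPM in control replicate 2.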
